A study of Mus musculus with 2 samples.

Results

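Chemokines are small secreted proteins that steer leukocytes into tissue, and 7 of them were followed here from cell to cell in the liver of mice with cirrhosis and of control mice. The 7 were Cxcl9, Cxcl10, Cxcl12, Cxcl16, Cxcl1, Ccl3 and Ccl4. They were chosen by name, as 7 of the 31057 gene rows in each of 2 count tables, and all 7 were found in both tables. The cirrhosis mice had inhaled vaporised carbon tetrachloride (CCl4), a hepatocyte toxin, for 12 weeks, and the control mice are labelled only as controls, with no sham exposure named. All mice were C57BL/6, aged 16 weeks, and carried Cdh5-Cre, a recombinase under an endothelial promoter, with the mTmG +/+ reporter, which marks a cell and its descendants with membrane GFP after recombination. Each group is 1 droplet library (3' v3 chemistry) of cells sorted as live and GFP-positive from the pooled non-parenchymal fraction of 3 livers.

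CXCL9 and CXCL10 are induced by interferon gamma and bind CXCR3 on T and NK cells. CXCL16 is made as a membrane protein that ADAM10 and ADAM17 can shed, and its receptor CXCR6 is carried by T and NKT cells that patrol the mouse liver sinusoid. CXCL12 binds CXCR4 and is scavenged by ACKR3, CXCL1 draws neutrophils through CXCR2, and CCL3 and CCL4 draw monocytes, T cells and NK cells, CCL3 in part through CCR1. The sinusoids, the capillaries that run from the portal to the central vein, are lined by liver sinusoidal endothelial cells (LSECs), which present several of these chemokines to passing leukocytes.

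The cirrhosis library held 8327 barcodes with 77339928 UMIs (unique molecular identifiers, counted transcripts), and the control library 5642 barcodes with 45767322 UMIs, of which 7191 and 4953 were retained. No difference has a replicate check or a test, because each group is a single library, and every comparison describes these 2 libraries. Levels are given as CPM, a gene's UMIs scaled to a common total for the class, and the 95% intervals cover counting error only. Cells were clustered without any chemokine gene and named from marker genes, with "-like" for each class. LSEC-like cells numbered 2880 in cirrhosis and 2886 in control (40.05% and 58.3% of retained barcodes), with medians of 9691 and 6938 UMIs. The labels call the samples endothelial cells, yet hepatocyte-like barcodes made up 16.5% and 0.242%, and T, NK, myeloid, B, plasma and cholangiocyte-like cells were present in both. The sort sets which of these cells are seen, so shares by class describe the libraries and not the liver. The libraries shared 17 barcodes, of which 5 cirrhosis and 8 control ones were LSEC-like, and results that rest on them are given with and without them.

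The chemokines split by source into a sinusoidal group, an epithelial and mesenchymal group and a leukocyte group. LSEC-like cells, which held 42.7% of all UMIs in cirrhosis and 54.9% in control, held the largest share of Cxcl9 (66.9% in cirrhosis and 67.2% in control), of Cxcl10 (64.4% and 64.1%) and of Cxcl16 (49.4% and 66.1%). In cirrhosis the Cxcl16 share lay near the class's share of all UMIs, and macrophage classes stood above LSEC-like cells in Cxcl16 level, as given further on. For Cxcl12 the class with most UMIs was mesenchymal-like in cirrhosis (28.7%, from 24 cells) and LSEC-like in control (28.7%). Cxcl1 lay mostly in cholangiocyte-like cells in cirrhosis (61.6%, against 8.997% in LSEC-like cells), while in control LSEC-like and cholangiocyte-like cells held 37.2% and 35.1%. Ccl3 and Ccl4 lay almost outside the LSEC-like cells, which held 1.82% and 1.39% of them in cirrhosis and 4.84% and 4.61% in control. Other macrophage or monocyte-like cells held 47.7% of Ccl3 in cirrhosis, and T cell-like cells held the largest share in control (26.9%, against 15.7% in other macrophage or monocyte-like cells). Of the 712 control UMIs in T cell-like cells, however, 652 lay in 5 cells with basophil and mast cell transcripts, described further on. The other 185 control T cell-like cells held 60. Plasmacytoid dendritic cell-like cells held 31.7% of Ccl4 in cirrhosis, and NK cell-like cells held most in control (27.1%). Under 4 other filters or clusterings the LSEC-like class kept the largest share of Cxcl9, Cxcl10 and Cxcl16 in both libraries, while for Cxcl12, Ccl3, Ccl4 and, in control, Cxcl1 the leading class changed with the setting.

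**Figure D1:**
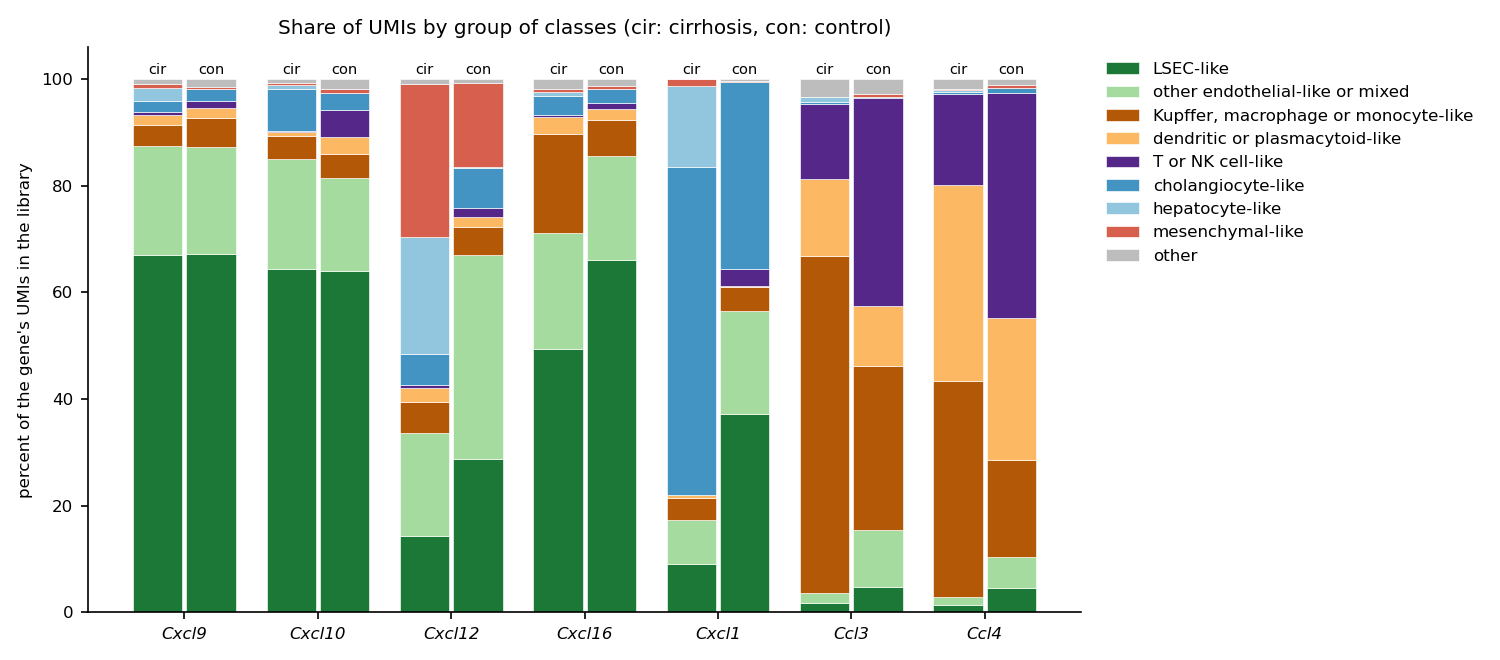
Percent of each chemokine's UMIs (vertical axis) that lay in each group of classes, in the cirrhosis library (left bar of each pair) and the control library (right bar). LSEC-like cells hold 64.1% to 67.2% of Cxcl9 and Cxcl10 in both libraries, whereas Ccl3 and Ccl4 lie in myeloid, dendritic, T and NK cell-like classes.

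**Figure D2:**
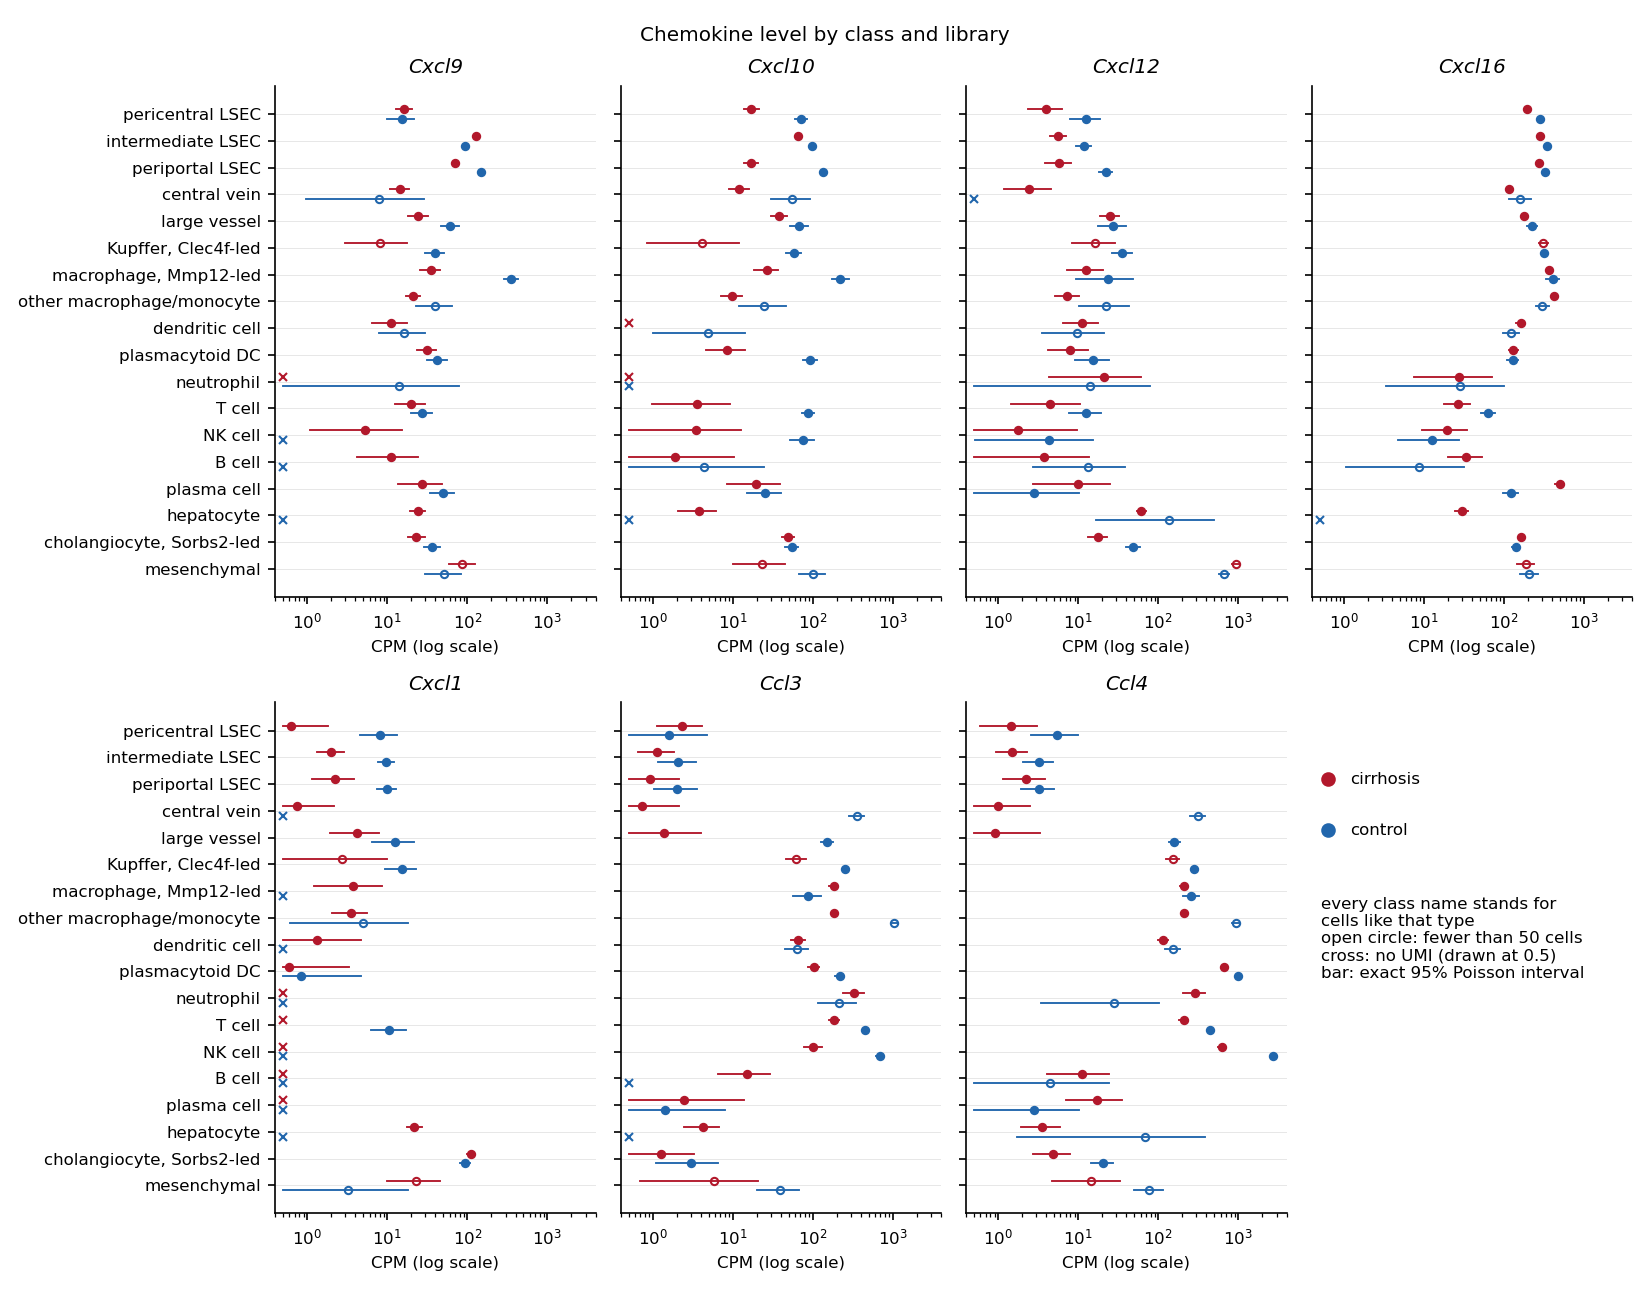
Level of each chemokine in 18 classes in CPM of the class (log axis), cirrhosis in red above control in blue, with exact 95% Poisson intervals; open circles are classes under 50 cells and crosses are classes with no UMI. Cxcl12 stands highest in mesenchymal-like cells in both libraries, and Ccl4 in NK cell-like cells stands at 619 CPM in cirrhosis and 2747 CPM in control.

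Most of the chemokines stood lower in cirrhosis wherever enough of them was counted. A gene was counted as past 2-fold if its CPM differed at least 2-fold with at least 20 UMIs over both libraries, in a class of at least 50 cells per library. In LSEC-like cells 5 of the 7 (Cxcl10, Cxcl12, Cxcl1, Ccl3 and Ccl4) were 2-fold or more lower, where 5.87% of 12997 genes were lower, and none was higher, where 5.54% were. In T cell-like cells 5 of 6 measured members were lower (Cxcl10, Cxcl12, Cxcl16, Ccl3 and Ccl4) with 8.34% of genes lower, and none higher with 4.03% higher. The calls of Cxcl16 and Ccl4 in that class are qualified below. In NK cell-like cells all 3 measured members (Cxcl10, Ccl3 and Ccl4) were lower with 4.15% of genes lower, and none higher with 3.59% higher.

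Large-vessel-like cells had 4 of 7 lower (Cxcl9, Cxcl1, Ccl3 and Ccl4, with 4.32% of genes lower) and none higher (3.82% of genes higher). Plasmacytoid dendritic cell-like cells had 2 of 6 lower (Cxcl10 and Ccl3, with 2.65% of genes lower) and none higher (4.12% of genes higher). Sorbs2-led cholangiocyte-like cells had 2 of 6 lower (Cxcl12 and Ccl4, with 2.68% of genes lower) and none higher (4.34%). In the Mmp12-led macrophage cluster 2 of 6 were lower (Cxcl9 and Cxcl10, with 5.62% of genes lower) and 1 higher (Ccl3, with 14.8% of genes higher). That cluster held 3 of the Kupffer cell and 3 of the other macrophage markers among its 10 leading genes and is called by its leading gene. Its cells were not alike in the 2 libraries: Clec4f, the lectin of resident Kupffer cells, stood at 1652 CPM in cirrhosis and 5574 CPM in control, Timd4, another resident marker, at 7.39 and 359 CPM, and Mmp12, a macrophage elastase, at 612 and 6.72 CPM. Which macrophages it holds and what they express therefore cannot be told apart in its ratios.

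Several of these counts rest on single cells, so each was repeated with the cell holding most of the gene left out of each library, a setting chosen after the data had been seen. The same 5 members were then past 2-fold in LSEC-like cells. In T cell-like cells 5 of 5 were lower (Cxcl9, Cxcl10, Cxcl16, Ccl3 and Ccl4), in NK cell-like cells 2 of 2 (Ccl3 and Ccl4), in large-vessel-like cells 2 of 4 (Cxcl9 and Cxcl10), in plasmacytoid dendritic cell-like cells 1 of 6 (Cxcl10), and in Sorbs2-led cholangiocyte-like cells 3 of 6 (Cxcl10, Cxcl12 and Ccl4). In the Mmp12-led macrophage cluster Cxcl9 and Cxcl10 stayed past 2-fold and Ccl3 did not. Of the T cell-like members, Ccl4 fell short of 2-fold without a few cells that held basophil and mast cell transcripts, and Cxcl16 stood close to the level that LSEC RNA in these cells would give, both described further on. Without the highest cells T cell-like Cxcl9 also stood close to that level, at 9.02 CPM in cirrhosis and 22.0 CPM in control, against 6.98 and 20.15 CPM. So did Cxcl10 in Sorbs2-led cholangiocyte-like cells, at 11.3 and 36.3 CPM against 12.7 and 31.8 CPM.

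**Figure D3:**
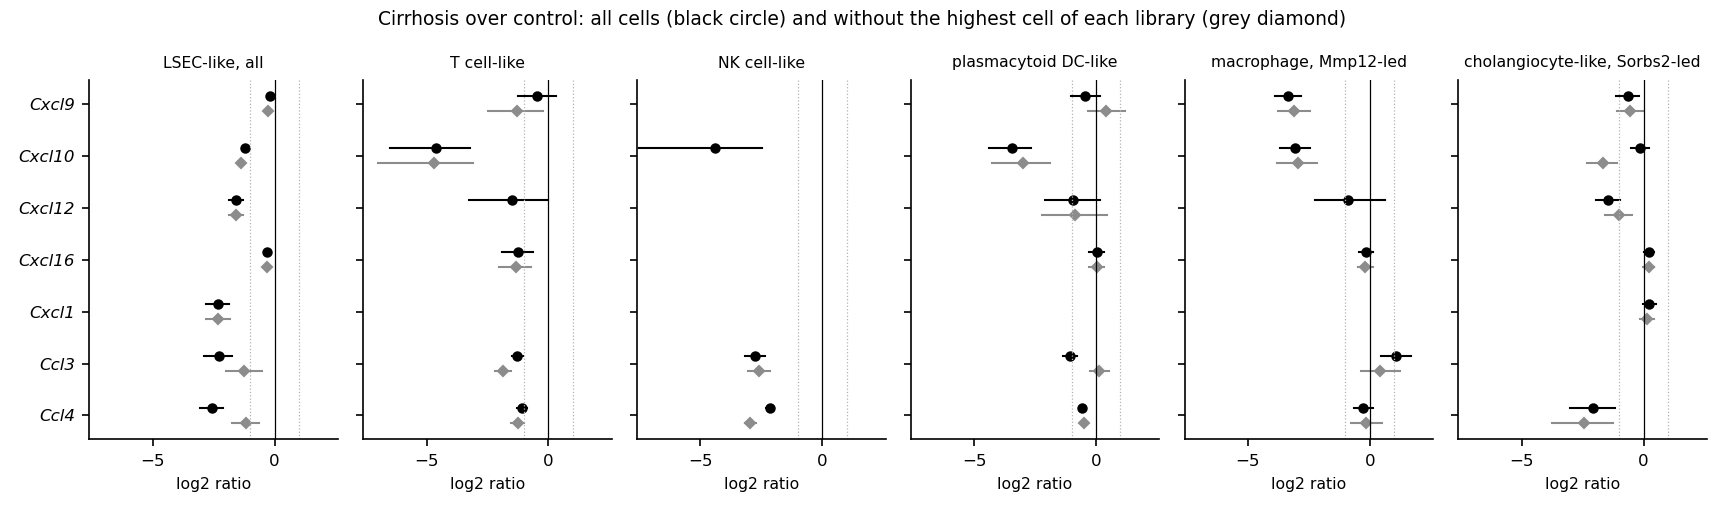
Log2 ratio of cirrhosis over control (horizontal axis) for each chemokine in 6 classes, with exact conditional 95% intervals; black circles use all cells, grey diamonds leave out the cell with most UMIs of that gene in each library, and dotted lines mark 2-fold. Values under 20 UMIs are not drawn, and Ccl3 in plasmacytoid dendritic cell-like cells moves to 0.14 without the highest cells.

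Cxcl9 and Cxcl10, the ligands of CXCR3, are neighbours on chromosome 5 (GENCODE M21 on GRCm38: Cxcl9 at 92321347 to 92328079 and Cxcl10 at 92346638 to 92348889, both on the minus strand). Their promoters are shown because the 2 genes share their main source and yet differed in how far they moved between the libraries. The sequences run 5' to 3' on the coding strand from 250 bases before to 50 bases after the RefSeq gene start on GRCm38.p6, at chr5:92328030-92328329 and chr5:92348840-92349139 on the minus strand. Capitals mark matches to any of 4 motifs on either strand, and positions count from the start.
Cxcl9: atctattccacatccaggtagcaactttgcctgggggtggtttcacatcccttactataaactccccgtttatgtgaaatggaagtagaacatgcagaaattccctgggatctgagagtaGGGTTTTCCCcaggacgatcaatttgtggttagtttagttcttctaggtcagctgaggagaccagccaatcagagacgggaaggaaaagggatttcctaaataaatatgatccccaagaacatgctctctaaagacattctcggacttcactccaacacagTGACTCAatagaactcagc
Cxcl10: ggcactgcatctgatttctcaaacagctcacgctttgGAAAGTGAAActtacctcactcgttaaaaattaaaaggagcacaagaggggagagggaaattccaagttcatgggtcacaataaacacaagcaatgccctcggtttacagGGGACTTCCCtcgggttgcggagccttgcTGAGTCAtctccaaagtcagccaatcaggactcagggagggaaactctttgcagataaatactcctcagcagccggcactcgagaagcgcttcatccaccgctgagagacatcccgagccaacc
The matches do not overlap each other. In Cxcl9 the capitals are a kappaB-type match (GGG, any 2 bases, TT, any base, CC) at -130 and an AP-1-type match (TGANTCA) at 32. In Cxcl10 they are an ISRE-type match (TTTC, any 2 bases, TTTC, named for the interferon-stimulated response element) at -213, a kappaB-type match at -103 and an AP-1-type match at -74. Neither window holds the GAS-type motif (TTCNNNGAA). Of 32851 promoter windows of this length, 3.44% hold the ISRE-type, 4.79% the kappaB-type, 7.81% the AP-1-type and 8.30% the GAS-type motif. Each match is a description of sequence, and binding was not measured.

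Cxcl9 was higher in intermediate and periportal than in pericentral LSEC-like cells in both libraries. In pericentral LSEC-like cells it stood at 16.1 CPM in cirrhosis (interval 12.7 to 20.1) and 15.1 CPM in control (10.0 to 21.8). In intermediate LSEC-like cells it stood at 129.9 CPM in cirrhosis and 92.3 CPM in control, and in periportal LSEC-like cells at 70.8 CPM in cirrhosis and 148 CPM in control. Pericentral was lowest in both, intermediate highest in cirrhosis and periportal in control, with intervals that did not overlap. The intermediate class joins 2 clusters, however, and with both weighted equally it stood at 121.8 CPM in cirrhosis and 167 CPM in control, above the periportal level in each library. The larger one in control (873 cells, and 594 in cirrhosis) had the pericentral marker Kit and no midlobular marker among its 10 leading genes. Its place along the sinusoid is therefore not set by markers. After each cell was thinned to 2000 UMIs, the share of cells with a Cxcl9 UMI was 3.58%, 17.7% and 12.3% from pericentral through intermediate to periportal in cirrhosis, and 1.98%, 11.2% and 17.3% in control. B cell-like cells, which should lack Cxcl9, had no thinned UMI in 122 and 45 cells, with medians of 3962 and 4332 UMIs before thinning. Unthinned, however, they had 11.2 CPM of Cxcl9 in cirrhosis and 0 CPM in control, against 16.1 and 15.1 CPM in pericentral LSEC-like cells.

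Over all LSEC-like cells Cxcl9 stood at 90.1 CPM in cirrhosis (86.6 to 93.7) and 103 CPM in control (98.6 to 107), a log2 ratio of -0.19 (-0.27 to -0.11), and 33.0% and 26.2% of cells had a UMI. The intervals did not overlap, but 1 cirrhosis cell held 189 UMIs. By zone the log2 ratio was 0.09 (-0.55 to 0.77) in pericentral, 0.49 (0.36 to 0.62) in intermediate and -1.07 (-1.25 to -0.89) in periportal cells. The intermediate class joined 2 clusters, and within each Cxcl9 was lower in cirrhosis: 50.1 against 66.0 CPM in the first and 193.5 against 268 CPM in the second. The second, richer in Cxcl9, held 790 cirrhosis and 124 control cells, and with both clusters weighted equally the log2 ratio of the class was -0.46.

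Outside the sinusoid Cxcl9 was lower in large-vessel-like cells, with 24.4 CPM in cirrhosis and 61.2 CPM in control, and with 21.3 and 46.6 CPM without the highest cells. LSEC markers stood in this class at 32.5% and 45.0% of their LSEC-like level. Multiplied by the LSEC-like level of Cxcl9, those shares give 29.3 and 46.3 CPM, and how much of the difference is LSEC RNA was not tested. Central-vein-like cells had 14.3 and 7.88 CPM, where control had 2 UMIs in 25 cells. The Mmp12-led macrophage cluster, low in depth (medians of 2219 and 1698 UMIs), had 34.7 CPM in cirrhosis and 353 CPM in control, a log2 ratio of -3.34 (-3.87 to -2.84). Those UMIs came from 10 of 408 and 7 of 136 cells, with up to 15 and 45 UMIs in 1 cell. Clec4f-led Kupffer cell-like cells had 8.15 CPM in cirrhosis (34 cells) and 39.0 CPM in control.

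**Figure D4:**
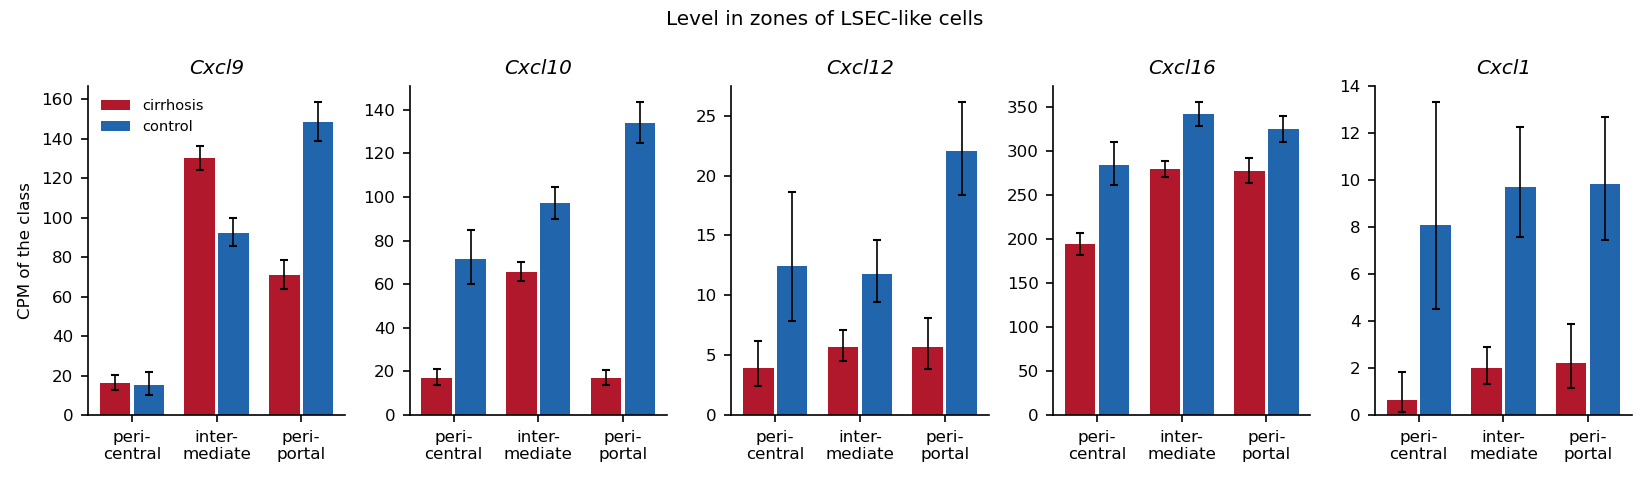
Level of 5 chemokines in pericentral, intermediate and periportal LSEC-like cells (CPM, linear axis from 0), cirrhosis in red left of control in blue, with exact 95% Poisson intervals. Cxcl9 is highest in the intermediate zone in cirrhosis (129.9 CPM) and in the periportal zone in control (148 CPM), an order that does not hold with the clusters of the intermediate zone weighted equally, and Cxcl10 falls short of its control level in all 3 zones.

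Cxcl10 was lower in cirrhosis in every LSEC zone, and the size of the gap depended on how the zones were drawn. Pericentral cells had 17.1 CPM in cirrhosis and 71.7 CPM in control, intermediate cells 65.7 and 97.2 CPM, and periportal cells 17.0 and 134 CPM. The log2 ratios were -2.07 (-2.48 to -1.66), -0.56 (-0.71 to -0.42) and -2.98 (-3.31 to -2.67). The intermediate class joined clusters at 27.6 and 96.1 CPM in cirrhosis and at 88.8 and 153 CPM in control. At a clustering resolution of 1.0 pericentral cells had 15.8 and 56.2 CPM, intermediate cells 57.1 and 62.9 CPM and periportal cells 58.8 and 144 CPM. Each zone was still lower in cirrhosis, but the fold difference was then widest at the central end, and the periportal level of cirrhosis stood beside the intermediate one. Over all LSEC-like cells Cxcl10 stood at 45.4 CPM in cirrhosis and 104 CPM in control, a log2 ratio of -1.20 (-1.30 to -1.10).

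Few cells carried the transcript. A UMI of Cxcl10 was found in 276 of 2880 cirrhosis and 453 of 2886 control LSEC-like cells, and the 144 highest cells held 88.8% and 75.9% of all Cxcl10 UMIs. In cirrhosis 1 cell alone held 191 UMIs, and without it and the highest control cell the log2 ratio was -1.40. With the stricter filter on barcodes the ratio was -0.88 and no longer past 2-fold. At 2000 UMIs per cell the shares were 4.30% in cirrhosis and 8.87% in control, against 0.820% and 0% in B cell-like cells, where 0 of 45 control cells allows a share of up to 6.67%. Cells with Cxcl10 more often held Cxcl9 as well: at equal depth Cxcl9 was found in 27.1% of cirrhosis cells with Cxcl10 and 13.1% of those without, and in 21.4% and 11.9% of control cells.

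Cxcl10 was also counted in leukocyte classes, mostly of the control library. T cell-like cells had 3.58 CPM in cirrhosis, from 4 of 170 cells, and 87.1 CPM in control, from 25 of 190 cells, a log2 ratio of -4.60 (-6.50 to -3.22). NK cell-like cells had 3.505 and 74.8 CPM, but 27 of the 35 control UMIs came from 1 cell. Plasmacytoid dendritic cell-like cells had 8.39 and 92.7 CPM, with 66 of 110 control UMIs in 1 cell, and 4.84 and 38.3 CPM without the highest cells. The Mmp12-led macrophage cluster had 26.6 and 222 CPM.

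RNA of LSECs moved with some of these values. The 11 LSEC markers, all above 0, stood in T cell-like cells at 7.75% of their LSEC-like level in cirrhosis and 19.6% in control, in NK cell-like cells at 5.63% and 3.59%, and in plasmacytoid dendritic cell-like cells at 34.7% and 34.8%. Multiplied by the LSEC-like level of Cxcl10, those shares give 3.52 and 20.4 CPM for T cell-like and 2.56 and 3.74 CPM for NK cell-like cells, and 15.7 and 36.2 CPM for plasmacytoid dendritic cell-like cells, where the control level without the highest cell was close to the product. The control T cell-like level of 87.1 CPM was above its product, and the cirrhosis level of 3.58 CPM stood close to its own product of 3.52 CPM. In Sorbs2-led cholangiocyte-like cells Cxcl10 stood at 49.2 and 54.9 CPM, with 118 of 153 cirrhosis UMIs in 1 cell.

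The immediate-early genes, such as Fos and Jun, which respond rapidly to stimuli of many kinds, also differed between the libraries. Of 15 such genes 13 were 2-fold or more lower in LSEC-like cells of cirrhosis, and their sum stood at 3284 CPM in cirrhosis and 15000 CPM in control. The median share of a cell's counts was 0.264% and 1.24%. In T, NK and plasmacytoid dendritic cell-like cells the list's median log2 ratio was -1.36, -1.43 and -1.77, in Sorbs2-led cholangiocyte-like cells -0.86, and in the Mmp12-led macrophage cluster 0.05. In LSEC-like cells the median was -2.30, against -0.06 for all genes. The state of the cells and the group therefore cannot be told apart across the whole class, and levels were set side by side at like immediate-early share, with the quartiles chosen after the data had been seen.

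The members did not all follow it. LSEC-like cells of both libraries were cut together into quartiles of the immediate-early share, which held 992, 1071, 813 and 4 cirrhosis and 450, 370, 628 and 1438 control cells. Cxcl10 in control stood at 15.6, 11.3, 68.4 and 145 CPM from the lowest to the highest quartile, and in cirrhosis at 17.6, 64.7 and 48.2 CPM in the first 3, where the second held the cell with 191 UMIs and stood at 47.2 CPM without it. Cxcl10 was thus level between libraries in the first quartile, higher in cirrhosis in the second and lower in the third. Among cells below the median share it stood at 43.9 CPM in cirrhosis (2063 cells) and 13.6 CPM in control (820 cells), a log2 ratio of 1.69 (1.29 to 2.12), opposite in sign to that of the whole class. These cells were not alike in depth, with medians of 8699 and 9846 UMIs in the first 2 quartiles of cirrhosis and 4486 and 4864 in control. The shallow Gm42418-led LSEC-like cluster (468 control cells) had only 2674 CPM of immediate-early genes in control. Within it Cxcl10 stood at 8.91 CPM in cirrhosis and 13.9 CPM in control. How far depth and cluster makeup bear on the reversed sign was not tested.

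Cxcl1 in control stood at 1.41, 3.24, 3.41 and 13.6 CPM over the quartiles, and in cirrhosis at 0.814, 1.38 and 3.46 CPM, with overlapping intervals within each of the first 3. Cxcl12 was lower in cirrhosis in the second and the third quartile (4.98 against 12.9 CPM, and 6.93 against 14.7 CPM), and its intervals overlapped in the first (5.58 against 8.48 CPM). Cxcl16 was lower in cirrhosis in each of the first 3 (263 against 357, 267 against 359.9, and 248 against 325 CPM). Cxcl9 was higher in cirrhosis in the first (102.5 against 77.3 CPM) and the second (102 against 71.8 CPM), and lower in the third (62.7 against 79.2 CPM). How far the immediate-early state bears on the differences of the whole class was not tested.

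**Figure D5:**
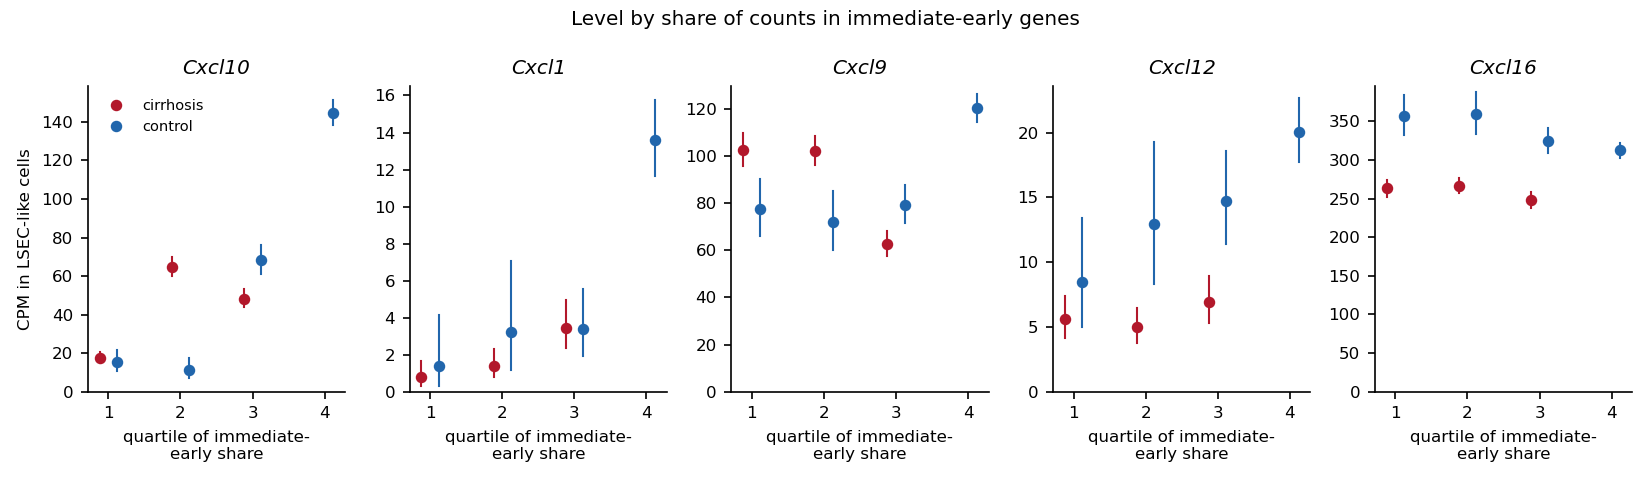
Level of 5 chemokines in LSEC-like cells (CPM, linear axis from 0) by quartile of the share of counts in immediate-early genes, cirrhosis in red left of control in blue, with exact 95% Poisson intervals; the highest quartile has only 4 cirrhosis cells, which are not drawn. Cxcl10 and Cxcl1 climb to 145 and 13.6 CPM in the highest quartile of control, while Cxcl16 stays between 248 and 359.9 CPM.

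Cxcl16 was the member spread most evenly over LSEC-like cells, and it differed little between the libraries. It stood at 260.0 CPM in cirrhosis (254 to 266) and 324 CPM in control (316 to 331), a log2 ratio of -0.32 (-0.36 to -0.27), and 85.2% and 84.4% of cells held a UMI. At 2000 UMIs per cell those shares were 38.3% and 47.3%, against 3.28% and 2.22% of B cell-like cells. By zone the levels were 194 and 285 CPM in pericentral, 279.7 and 342 CPM in intermediate and 277 and 325 CPM in periportal cells, each lower in cirrhosis. Intermediate and periportal levels overlapped in both libraries, and pericentral stood lowest in both.

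The larger vessels carried less of it than LSEC-like cells as a whole in both libraries, with 179.9 and 227 CPM in large-vessel-like and 117 and 162 CPM in central-vein-like cells, although the large-vessel and pericentral intervals overlapped in cirrhosis. Macrophages carried it as well, with 418 CPM in cirrhosis and 303 CPM in control (33 cells) in other macrophage or monocyte-like cells, 366 and 409.7 CPM in the Mmp12-led macrophage cluster, and 311 and 318 CPM in Clec4f-led Kupffer cell-like cells. In cirrhosis all 3 levels lay above the LSEC-like one without overlap of intervals. Sorbs2-led cholangiocyte-like cells had 165 and 141 CPM.

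T cell-like cells had 26.9 CPM in cirrhosis and 63.9 CPM in control, a log2 ratio of -1.25 (-1.89 to -0.65). The products of LSEC-marker share and LSEC-like level were 20.2 and 63.4 CPM, close to those 2 values. Plasma cell-like barcodes had 499 CPM in cirrhosis and 123 CPM in control. At a clustering resolution of 1.0, however, an unnamed cluster led by Apol7c held 690.5 and 647 CPM in 42 and 22 cells, and the plasma cell-like cluster that was left held 91.7 and 26.9 CPM.

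Cxcl12 was a mesenchymal transcript first, with a lower level along the vessel wall. Mesenchymal-like cells had 930.0 CPM in cirrhosis (831 to 1037), in 20 of 24 cells, and 660.0 CPM in control (572 to 757), in 9 of 17 cells. The intervals did not overlap, but 24 and 17 cells are too few for a ratio here. Hepatocyte-like barcodes of the cirrhosis library had 61.6 CPM, with a UMI in 190 of 1186, and the control library held only 12 such barcodes.

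In LSEC-like cells Cxcl12 stood at 5.76 CPM in cirrhosis and 17.2 CPM in control, from 162 and 371 UMIs, a log2 ratio of -1.58 (-1.85 to -1.31), and no cell held more than 6. It was lower in cirrhosis in all 3 zones: 3.97 against 12.4 CPM in pericentral, 5.66 against 11.8 CPM in intermediate and 5.72 against 22.0 CPM in periportal cells. In control the periportal level was the highest of the 3 and did not overlap that of the intermediate zone, but it overlapped that of the pericentral zone. In cirrhosis the 3 levels overlapped.

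Large-vessel-like cells had 24.9 and 26.9 CPM, with overlapping intervals, and 26 of the 54 cirrhosis UMIs were in 1 cell. Sorbs2-led cholangiocyte-like cells had 17.7 CPM in cirrhosis and 48.5 CPM in control, a log2 ratio of -1.45 (-1.96 to -0.96), and 32 of 98 control UMIs were in 1 cell. Clusters of endothelial-like cells that stayed unnamed had 12.0 and 83.4 CPM. The highest of them, at 128.7 and 223.2 CPM in 21 and 56 cells, was led by Dcn and had Rgs5 among its leading genes, both mesenchymal markers. The others had 4.43 to 7.91 CPM in cirrhosis and 32.0 to 76.2 CPM in control. How much of the difference is RNA of mesenchymal cells was not tested. Central-vein-like cells had 2.46 CPM in cirrhosis and no UMI in 25 control cells.

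Cxcl1 was an epithelial transcript in both libraries, and in control it was also spread at a low level over LSEC-like and other classes. Its promoter is shown because it alone of the 5 windows found holds the kappaB-type motif more than once, at -89 (capitals, read on the other strand) and at -71. It lies at chr5:90890995-90891294 on the plus strand of GRCm38.p6, from RefSeq.
Cxcl1: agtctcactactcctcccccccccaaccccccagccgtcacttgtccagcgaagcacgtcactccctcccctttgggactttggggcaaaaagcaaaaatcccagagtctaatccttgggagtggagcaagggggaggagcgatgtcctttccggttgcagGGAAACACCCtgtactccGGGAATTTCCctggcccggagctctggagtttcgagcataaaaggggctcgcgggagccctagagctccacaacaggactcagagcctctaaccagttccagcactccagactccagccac
Windows of Cxcl12 and Ccl3 held none of the 4 motifs.

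Sorbs2-led cholangiocyte-like cells had 110.3 CPM of Cxcl1 in cirrhosis (98.95 to 123), in 45 of 124 cells, and 93.5 CPM in control (80.6 to 108), in 40 of 93 cells. The log2 ratio was 0.24 (-0.02 to 0.50), so the intervals overlapped, and 1 cell held 74 and 30 UMIs. Mmp7-led cholangiocyte-like barcodes of the cirrhosis library, low in depth, had 78.4 CPM, and hepatocyte-like barcodes 21.7 CPM, where 1 barcode held 22 of 87 UMIs.

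In LSEC-like cells Cxcl1 stood at 1.85 CPM in cirrhosis and 9.29 CPM in control, from 52 and 201 UMIs in 41 and 103 cells, a log2 ratio of -2.33 (-2.80 to -1.88). The control level was not particular to the sinusoid. Control large-vessel-like cells had 12.4 CPM, Clec4f-led Kupffer cell-like cells 15.1 CPM and all retained control cells together 13.7 CPM. Pericentral cells had 0.626 and 8.09 CPM, intermediate cells 2.01 and 9.71 CPM and periportal cells 2.21 and 9.83 CPM, and the zones overlapped in control. At a clustering resolution of 1.0 the intermediate zone had 2.79 and 2.68 CPM, so the difference there did not hold, while the other 2 zones stayed lower in cirrhosis. T cell-like cells had no UMI in cirrhosis and 17 in control, 10 of them in 1 cell. No UMI was found in NK, B, plasma or neutrophil-like cells of either library.

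Ccl3 and Ccl4, neighbours on chromosome 11 (83647844 to 83649355 on the minus strand, and 83662584 to 83664683 on the plus strand), were leukocyte transcripts. In NK cell-like cells Ccl4 stood at 619 CPM in cirrhosis (556 to 687) and 2747 CPM in control (2599 to 2902), a log2 ratio of -2.15 (-2.33 to -1.98). Ccl3 stood there at 102 CPM in cirrhosis and 684 CPM in control, a log2 ratio of -2.75 (-3.18 to -2.34). Both were lower in cirrhosis without overlap, although 166 of the 353 cirrhosis Ccl4 UMIs came from 1 cell. At 2000 UMIs per cell 28.9% of cirrhosis and 77.8% of control NK cell-like cells held Ccl4 and 18.1% and 43.1% held Ccl3, against 2.46% and 2.22%, and 0.820% and 0%, of B cell-like cells. In cirrhosis Ccl4 was found in 53.3% of NK cell-like cells with Ccl3 and 23.5% of those without, and in control in 90.3% and 68.3%.

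Plasmacytoid dendritic cell-like cells had 657 CPM of Ccl4 in cirrhosis and 985 CPM in control, a log2 ratio of -0.59 (-0.71 to -0.47). Their Ccl3 stood at 103 and 217 CPM, but 165 of 258 control UMIs came from 1 cell, and without the highest cells the levels were 87.5 and 79.6 CPM. The direction of Ccl3 in this class therefore turned with 1 cell, while that of Ccl4 did not.

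Myeloid classes differed among themselves. Other macrophage or monocyte-like cells had 185 CPM of Ccl3 in cirrhosis (246 cells) and 1032 CPM in control (33 cells), and 207 and 928 CPM of Ccl4. Clec4f-led Kupffer cell-like cells had 62.5 CPM of Ccl3 in cirrhosis (34 cells) and 255 CPM in control (92 cells). In the Mmp12-led cluster Ccl3 stood at 182 CPM in cirrhosis and 87.3 CPM in control, a log2 ratio of 1.06 (0.47 to 1.70), with 145 of 246 cirrhosis UMIs in 1 cell, and at 76.2 and 57.7 CPM without the highest cells, where the interval of the log2 ratio ran from -0.35 to 1.24. Its Ccl4 stood at 211 and 255 CPM with overlapping intervals. Neutrophil-like cells had 326 CPM of Ccl3 in cirrhosis (51 cells) and 210.4 CPM in control (20 cells), also overlapping.

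A handful of cells carried much of the Ccl3 of both libraries. They held 3 or more UMIs of Mcpt8, Cd200r3 and Ms4a2 summed, genes known from basophils and mast cells, and were picked out after the chemokine values had been seen. There were 5 in cirrhosis and 8 in control. Mcpt8 was found in 3 and 2 of them, Cd200r3 in 5 and 8, and Ms4a2 in 5 and 7. These cells held 289 of 1871 Ccl3 UMIs (15.4%) in cirrhosis and 964 of 2642 (36.5%) in control. Of Ccl4 they held 7.81% and 19.6%. Ccl3 per cell had a median of 45 UMIs and a lowest value of 7 in cirrhosis, and a median of 116.5 and a lowest value of 41 in control.

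Other transcripts, which did not enter that choice, were also shared by these cells. Fcer1a, a chain of the IgE receptor, was found in 4 of 5 and 8 of 8 of them and in 3 of 7186 and 2 of 4945 other cells. Cpa3, the mast cell carboxypeptidase, was found in 5 and 7 of them and in 1 and 1 others, and Cyp11a1 in 5 and 8 of them and in 1 and 4 others. Cd3e, a chain of the T cell receptor complex, was found in 1 and 0 of them. Cdh5, an endothelial marker, was found in 3 and 5 of them and in 4943 and 4104 others. Il6 was found in 1 and 8 of them and in 5 and 8 others. Clustering had placed 2 in T cell-like, 2 in dendritic cell-like and 1 in pericentral LSEC-like cells in cirrhosis, and 5 in T cell-like and 1 each in central-vein-like, large-vessel-like and Rasd1-led LSEC-like cells in control.

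Levels of several classes rested on them. T cell-like cells had 184 CPM of Ccl3 in cirrhosis and 446 CPM in control with these cells, and 11.7 and 38.3 CPM without them, a log2 ratio of -1.71 (-2.70 to -0.83). Their Ccl4 stood at 209 and 445 CPM with them, and at 69.4 and 92.03 CPM without, where the log2 ratio of -0.41 (-0.83 to 0.00) was no longer past 2-fold. Large-vessel-like Ccl3 of 1.38 and 151 CPM became 1.38 and 3.22 CPM, from 3 UMIs each. Central-vein-like Ccl3 of 0.738 and 355 CPM became 0.738 CPM and none.

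In LSEC-like cells Ccl3 stood at 1.21 CPM in cirrhosis and 5.92 CPM in control with these cells, and at 0.960 and 2.27 CPM without, a log2 ratio of -1.24 (-1.98 to -0.53). Ccl4 stood at 1.71 and 10.1 CPM with them, and at 1.71 and 3.70 CPM without, a log2 ratio of -1.12 (-1.67 to -0.58). The control cell with 79 Ccl3 and 138 Ccl4 UMIs carried a barcode present in both libraries, and without all shared barcodes the log2 ratios were -0.91 and -1.12. With the 3 zones weighted equally, which leaves the cluster of that cell out, Ccl3 gave -0.39 and Ccl4 -1.19, and with doublets kept they gave -0.76 and -1.19, so that Ccl3 was not past 2-fold under these 3 settings. NK cell-like values did not change, since none of these cells lay there.

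The receptors lay mainly on leukocytes, and how far they differed between the libraries depended on the class. Cxcr3, the receptor of CXCL9 and CXCL10, stood in T cell-like cells at 209 CPM in cirrhosis and 218 CPM in control, and in NK cell-like cells at 231 and 310.0 CPM. Cxcr6, the receptor of CXCL16, stood in T cell-like cells at 799 CPM in cirrhosis and 692 CPM in control, a log2 ratio of 0.21 (0.08 to 0.33), and in NK cell-like cells at 469.6 and 532 CPM. Neither was past 2-fold in these classes.

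Neutrophil-like cells carried Cxcr2, the receptor of CXCL1, at 1289 CPM in cirrhosis (51 cells) and 1388 CPM in control (20 cells), and Ccr1 at 838 and 785 CPM. Cxcr4, the receptor of CXCL12, was thin in LSEC-like cells, with 1.31 and 1.62 CPM. In NK cell-like cells it stood at 42.1 and 12.8 CPM, from 24 and 6 UMIs, a log2 ratio of 1.71 (0.38 to 3.29). In the Mmp12-led macrophage cluster, whose makeup differed between the libraries, 5 of 6 measured chemokine receptors were 2-fold or more higher and none lower. They were Cxcr4 (54 and 1 UMIs), Ccr1 (41 and 3), Ccr2 (142 and 4), Cx3cr1 (239 and 6) and Ccrl2 (42 and 3). Of all genes there 14.8% were higher and 5.62% lower.

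LSEC-like cells carried Ackr3, the scavenger of CXCL12, and it was higher there in cirrhosis. Over LSEC-like cells it stood at 50.3 CPM in cirrhosis and 14.9 CPM in control, a log2 ratio of 1.75 (1.58 to 1.93), where 5.54% of genes were 2-fold or more higher. By zone it stood at 163 and 59.3 CPM in pericentral, 31.3 and 15.7 CPM in intermediate and 5.35 and 1.70 CPM in periportal cells, falling from the central to the portal end in both libraries. Large-vessel-like cells had 39.2 and 39.4 CPM, a log2 ratio of -0.0066 (-0.57 to 0.59), and central-vein-like cells 231 and 213 CPM, the second from 25 cells. Cxcl12 in the same LSEC-like cells stood lower in cirrhosis, at 5.76 against 17.2 CPM.

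The proteases that release or cut these chemokines stayed within 2-fold in LSEC-like cells. Adam10 stood at 183 CPM in cirrhosis and 160.3 CPM in control, with 286 and 176 CPM in pericentral cells, and Adam17 at 63.9 and 61.1 CPM. Dpp4, a peptidase that truncates CXCL10 and CXCL12, stood at 426 and 660.3 CPM, a log2 ratio of -0.63 (-0.67 to -0.60), and was lower in cirrhosis in all 3 zones.

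Related lists in LSEC-like cells moved in both directions, and their counts stand beside 5.87% of all genes 2-fold or more lower and 5.54% higher. Of 27 other chemokine ligands found in the files, 14 reached 20 UMIs, and 5 of them were 2-fold or more lower and 1 higher, with a median log2 ratio of -0.47 against -0.06 for all genes. The lower ones were Cxcl2, Cxcl13, Ccl5, Xcl1 and Ppbp, at levels of 11.9 CPM or less, and the higher one was Ccl9 at 3.34 CPM in cirrhosis and 0.416 CPM in control. Ppbp and Ccl9, and the genes called in the next lists, are named after their values were seen. Of 11 measured receptors 3 were higher (Ackr3, Ccr2 and Cx3cr1) and 1 lower (Cxcr2, from 11 and 18 UMIs), with a median of 0.54. Of 14 measured genes of the interferon gamma pathway, which induces Cxcl9 and Cxcl10, 2 were lower (Irf1 at 74.5 and 212 CPM, and Socs1 at 27.1 and 116 CPM) and 1 higher (Ciita, 16 and 5 UMIs), with a median of 0.07. Of 15 NF-kB pathway genes 3 were lower (Nfkbiz, Tnf and Icam1) and none higher, with a median of -0.18.

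Elsewhere the other ligands had their own sources. Ccl5 stood in NK cell-like cells at 5299 CPM in cirrhosis and 12330 CPM in control, and Xcl1 at 1996 and 2726 CPM, both lower in cirrhosis like Ccl3 and Ccl4 there. Ccl21a, a lymphatic chemokine that binds CCR7, stood in lymphatic endothelial-like cells at 3452 CPM in cirrhosis, where the control library held only 2 such cells. Cxcl2, which shares CXCR2 with CXCL1, and Ccl6 stood highest in neutrophil-like cells. Cxcl2 had 818 CPM there in cirrhosis and 1066 CPM in control, and Ccl6 had 1372 and 2791 CPM, from 51 and 20 cells. In the Mmp12-led macrophage cluster Ccl24, an eosinophil attractant, had 186 CPM in cirrhosis and 584 CPM in control. Cxcl13, which draws B cells, had no UMI there in cirrhosis and 494 CPM in control, and Pf4 had 284 and 158 CPM.

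Across 33 pairs of class and library with at least 50 cells, the pattern of each chemokine on a log2(CPM + 10) scale was set beside that of every gene reaching 20 CPM. The points share libraries, depth and, between neighbouring classes, RNA, so the coefficients are descriptions. Ccl3 and Ccl4 had each other as the closest gene (Pearson r 0.955), followed by Pik3cd and Fyb for Ccl3 and by Fyb and Cyth4 for Ccl4. Cxcl16 was closest to Spred1 (0.845), Hfe and Anxa3, and Cxcl1 to Fgfrl1 (0.914), Acnat1 and Ccdc68. Cxcl9 was closest to Ly96 (0.763), Hpgd and Tspan15, Cxcl10 to Vipr1 (0.743), Colec10 and Lrat, and Cxcl12 to Mup3 (0.807), Klf15 and Mettl7a1. The mesenchymal-like class, where Cxcl12 stood highest, had 24 and 17 cells and so is not among these points. Among the members themselves Cxcl9 and Cxcl10 had r 0.652, Cxcl9 and Cxcl16 0.643, and Ccl4 and Cxcl16 -0.341.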

How the data were processed

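Single-cell RNA was counted in 2 libraries, 1 per group, each from 3 pooled mice. Per the submitters' processing notes, the authors used Cell Ranger and mm10; the sources used here give no version, annotation or filter. The deposited tables hold raw UMI counts as whole numbers per gene symbol and barcode, with a lowest total of 500 UMIs and medians of 8537 (cirrhosis) and 6864.5 (control). Barcodes needed 500 UMIs, 300 genes, under 20% mitochondrial and under 5% erythroid counts, which removed 666 cirrhosis and 475 control barcodes. The 470 (6.13%) and 214 (4.14%) barcodes with the highest doublet scores, 0.8% per 1000 barcodes that passed, were removed.

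Counts were scaled to 10000 per cell. From 2000 variable genes without chemokine, haemoglobin and immediate-early genes, 30 components and 20 neighbours gave Leiden clusters at resolution 0.5, and endothelial-like cells were clustered again at 0.8 (Python 3.11.15, numpy 2.4.6, scipy 1.17.1, scikit-learn 1.9.0, leidenalg 0.10.2). Classes were named from marker lists, with thresholds set after the data had been seen, and differences from the study's own classes may come from these rebuilt names. An LSEC-like cluster that no zone list named was called intermediate if an endothelial marker was among its leading genes.

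UMIs were summed per class and library and given as CPM of the class total with exact Poisson intervals. The log2 ratio of cirrhosis over control has an exact conditional interval, and no test was made, since n was 1. Ratios needed 50 cells per library, a zero count was read as under 3 counts, and shares of cells with a UMI were taken after thinning to 2000 UMIs. Free RNA was read from B cell-like cells and LSEC markers. On counts simulated for LSEC-like cells over 12973 genes, the 2-fold rule called 100% of genes changed 4-fold, 98.0% of those changed 3-fold upward, and 0.759% of unchanged ones. The simulation drew sums of the class with counting error alone, without spread between cells or libraries. These shares therefore do not cover genes held by few cells, such as Cxcl10. UMIs come from amplified cDNA and each interval covers counting error only.

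The members and lists were chosen with earlier results of these data known. Named genes were the 7 members, their receptors (some results are not reported here), Adam10, Adam17 and Dpp4, the 8 other ligands with the highest level, and the 3 genes closest to each member in pattern. Positions come from GENCODE M21 and promoters from RefSeq, which held 5 of the 7 (not Cxcl16 and Ccl4). Scaling, filters, doublets, resolution, other cell types' transcripts, immediate-early state, zone makeup and depth were varied.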

Additional observations from a re-analysis of the deposited data

Results flagged for a closer look

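Cxcl9 differed between classes by 3.84 on the log2 scale: the ratio of cirrhosis over control was 0.49 in intermediate LSEC-like cells and -3.34 in the Mmp12-led macrophage cluster. It stands out because the intervals lay on opposite sides of 0. The difference itself was not tested, since each class has 1 library per group. The macrophage value rests on 10 cirrhosis and 7 control cells with a UMI, in a cluster whose cells differed in Clec4f (1652 and 5574 CPM) and Mmp12 (612 and 6.72 CPM), and the intermediate value was negative in each of its 2 clusters taken alone.

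Cxcl16 differed by 3.26 between plasma cell-like barcodes, with a log2 ratio of 2.01, and T cell-like cells, with -1.25. This difference stands out for the same reason and was likewise not tested. At resolution 1.0 the cells with most Cxcl16 left the plasma cell-like class for an unnamed cluster led by Apol7c, at 690.5 CPM in cirrhosis and 647 CPM in control, and the plasma cell-like class held 91.7 and 26.9 CPM.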

How the results depend on the processing

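No paired analysis was possible because each group had 1 library. Of the values recomputed for the main comparisons under the alternatives, 86 stayed within counting error, 43 moved further and 1, that of Cxcl10, reversed past 2-fold. All values here are log2 ratios of cirrhosis over control. Cells under the median immediate-early share gave 1.69 for Cxcl10 in LSEC-like cells, and 0.45 for Cxcl9, also of the other sign, then -1.01 for Cxcl12, -0.43 for Cxcl16, -1.001 for Cxcl1, -1.29 for Ccl3 and -1.29 for Ccl4. In LSEC-like cells, equal weight for the 3 zones gave -1.60 for Cxcl10, -0.39 for Ccl3 and -1.19 for Ccl4; thinning gave -0.048 for Cxcl9, -1.07 for Cxcl10, -0.37 for Cxcl16 and -1.45 for Ccl4; and median-of-ratios scaling gave -0.25 for Cxcl16. That scaling gave -0.45 for Ccl3 and -0.29 for Ccl4 in Kupffer cell-like cells, here the Mmp12-led and Clec4f-led clusters together.

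Doublets kept gave -0.76 for Ccl3 and -1.19 for Ccl4 in LSEC-like cells, and T or NK cell-like cells gave -2.26 and -1.70. The stricter filter gave -0.075 for Cxcl9 and -0.88 for Cxcl10 in LSEC-like, and -1.71 for Ccl3 and -1.20 for Ccl4 in Kupffer cell-like cells. No filter gave -1.14 and -1.02 for Ccl3 and Ccl4 in LSEC-like, -0.98 and -1.22 in Kupffer cell-like cells, and -1.67 for Ccl4 in T or NK cell-like cells. Resolution 1.0 gave -2.07 for Ccl3 in T or NK cell-like cells.

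Alternatives chosen after the data had been seen follow. Without the highest cell of each library LSEC-like cells gave -0.28 for Cxcl9, -1.40 for Cxcl10, -1.24 for Ccl3 and -1.18 for Ccl4, Kupffer cell-like cells -1.38 for Ccl3 and -1.14 for Ccl4, and T or NK cell-like cells -2.11 and -1.80. Without the cells with Mcpt8, Cd200r3 and Ms4a2 transcripts Ccl3 gave -1.24 and Ccl4 -1.12 in LSEC-like, and Ccl3 -2.15 in T or NK cell-like cells. Without shared barcodes Ccl3 gave -0.91 and Ccl4 -1.12. The cause of each move was not tested beyond what its setting leaves out. The number of members 2-fold or more lower in LSEC-like cells was 4 or 5 under every setting run. The same class held the largest share of a member's UMIs in 40 of 56 repeats.

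Depth limits Cxcl1, Ccl3 and Ccl4 in LSEC-like cells, at 34 to 52 UMIs in cirrhosis, and every ratio in classes near 50 cells. With 3 mice pooled into 1 library per group, differences between animals, handling and group cannot be told apart.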
